A study of Mus musculus with 2 samples.

Results

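The 10 genes described here, Tdh, Gcat, Gldc, Amt, Gcsh, Phgdh, Psat1, Psph, Shmt2 and Mthfd2, encode enzymes that make or break down threonine, glycine and serine. They were chosen by name for their place in the pathway and matched by symbol to the Ensembl gene identifiers of the count tables, where all 10 were found among 43629 identifiers. The rule for the choice used no levels, but earlier results of these data were known when it was made. The cells were E14, a line of embryonic stem cells from a mouse blastocyst of 129/Ola background, wild type and with no treatment named in the labels. Polyadenylated RNA was taken up in Trizol and made into libraries with an Illumina TruSeq kit, under a protocol described as reverse-stranded. There was 1 group of 2 libraries, with the age labels P33 and P42. In culture such labels usually give the passage, but the labels do not spell this out, and nothing in them says that the RNA came from separate cultures, so the SD of the 2 libraries may be partly technical.

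Mouse embryonic stem cells are known for their dependence on threonine. Mitochondrial threonine dehydrogenase (Tdh) and its partner Gcat turn threonine into glycine and acetyl-CoA, and the glycine cleavage system then passes a carbon of glycine to folate. A parallel route makes serine from a glycolytic intermediate through Phgdh, Psat1 and Psph, and Shmt2 and Mthfd2 carry the carbon of serine into mitochondrial folate. The folate-bound carbon serves purine and thymidylate synthesis and, through methionine, the methylation of histones and DNA.

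Levels are given in CPM (counts scaled to the size of the library, with the trimmed mean of M values), and levels of different genes are compared in RPKM, which also divides by the length of the merged exons. Each gene was measured from 1343 counts or more, and the libraries held 40139219 counts (P33) and 39657578 counts (P42), so that 1 CPM stood for 42.2 and 37.8 counts. With 1 library for each age label, the difference between P42 and P33 cannot be set against replicates, and no p-value is given. Its 95% Clopper-Pearson interval covers counting error alone, and PCR copies are not independent molecules. Markers of pluripotent cells were detected, meaning at 1 CPM or more in both libraries, for 7 of 7 genes, with a summed level of 5227 and 5799 CPM. The ratio of P42 over P33 was above 0 for 5 of them. Sox2 was the 1 at least 2-fold higher in the P42 library (303 and 619 CPM), while Pou5f1 was lower there (803 and 503 CPM). Of 8 fibroblast markers 3 were detected, Thy1 (29.8 and 24.7 CPM), Pdgfrb (6.50 and 5.56 CPM) and Fbn1 (4.34 and 2.33 CPM). The sums over all 8 were 43.8 and 33.4 CPM, and Postn had 0 counts in both libraries. All 6 primitive endoderm markers were at least 2-fold higher in the P42 library, with sums of 32.7 and 107 CPM. The 5 markers of the 2-cell-like state summed to 3.94 and 0.397 CPM, and none was detected. The part of such cells in the ratios below was not tested, and in bulk RNA fewer cells of a type and less RNA per cell cannot be told apart.

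All 10 genes were detected in both libraries, and as a group they stood high among expressed genes. Their median level was 67.4 RPKM, beside 5.78 RPKM over the 13672 expressed genes (mean of 1 CPM or more, length known). Of the 10 genes, 7 lay above the 90th percentile of those genes, and the lowest, Gcat, lay at percentile 76.2. The 10 genes together took 0.284% of all counts in P33 and 0.306% in P42.

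By mean RPKM the order ran from Psat1 through Tdh, Gcsh, Gldc, Shmt2, Mthfd2, Phgdh, Amt and Psph to Gcat. Neighbours in this order were separated in both libraries at 3 steps, where the range of Gcsh lay above that of Gldc, Shmt2 above Mthfd2, and Mthfd2 above Phgdh. At the other steps the ranges of the 2 libraries overlapped. With the longest transcript as length the order of the means was the same, and 5 steps were separated. Mthfd2 still lay above Phgdh, and Psat1 above Tdh, Tdh above Gcsh, Phgdh above Amt and Psph above Gcat were then separated too. Gcsh (130 to 156 RPKM), however, then overlapped Gldc (112 to 148 RPKM), and Shmt2 overlapped Mthfd2. Psat1 and Tdh held ranks 1 and 2 in each library under both lengths. Gcsh held rank 3 in each, except in P33 over the longest transcript, where it came after Gldc. Psph and Gcat were lowest by the mean and in P33, whereas Amt and Gcat were lowest in P42. These ranks use the count of each gene alone. With the counts of its annotated copies added (described below), Phgdh had 188 and 189 CPM over 2486 exon bases. Mthfd2 had 201 and 200 CPM over 3487 exon bases, so per length it then no longer lay above Phgdh.

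**Figure D1:**
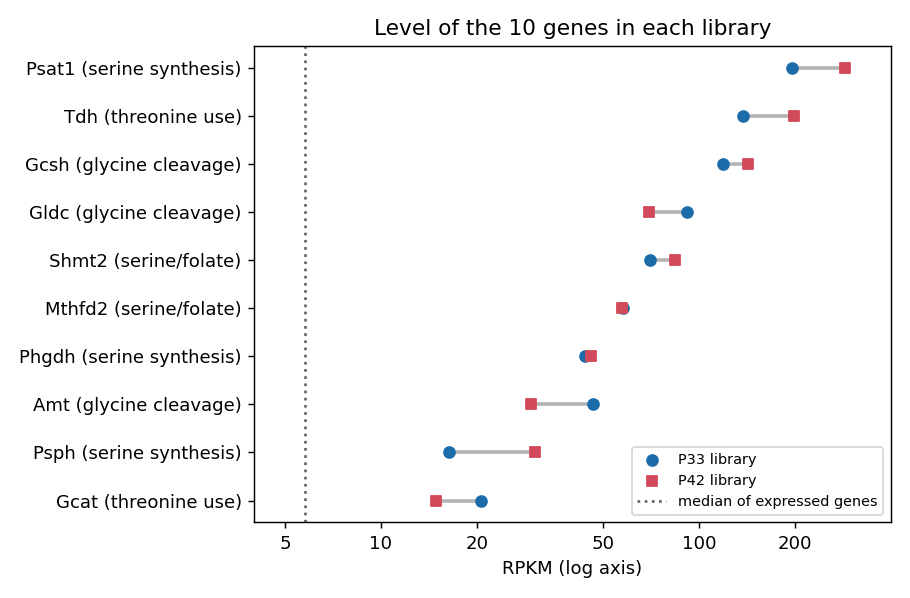
Level of each gene in RPKM (log axis) in the P33 library (circles) and the P42 library (squares), joined by a line and ordered by the mean of both. The dotted line is the median of expressed genes at 5.78 RPKM; all 20 points lie to its right, from 14.9 RPKM for Gcat to 288 RPKM for Psat1.

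Tdh (ENSMUSG00000021953; GRCm38, chr14:63492347-63509092, minus strand) encodes the first enzyme of threonine breakdown, whose human counterpart gene is not functional. It had 15200 counts in P33 and 19659 in P42, or 361 and 521 CPM, and its level was 168 ± 43.3 RPKM (SD, n = 2), above 98.1% of expressed genes. Tdh was 1.44-fold higher in the P42 library, a log2 ratio of 0.53 with a counting interval from 0.50 to 0.56. Gcat (ENSMUSG00000006378; chr15:79030874-79038353, plus strand) encodes the ligase that splits the product of Tdh into glycine and acetyl-CoA. It went the other way, with 2074 and 1343 counts, 49.2 and 35.6 CPM, a level of 17.8 ± 4.05 RPKM (SD, n = 2) and a log2 ratio of −0.47 (interval −0.57 to −0.37). Tdh therefore exceeded Gcat 6.68-fold per length in the P33 library and 13.3-fold in the P42 library. Gcat lies on chromosome 15, where the median log2 ratio of 539 expressed genes was −0.61, so its ratio was close to that of its neighbours on the chromosome. On chromosome 14, the chromosome of Tdh, the median was 0.20 over 464 genes.

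Tdh has 1 annotated near-identical copy, the transcribed processed pseudogene Gm13929 (chr2:112000180-112001304), which matched it at 97.1% of 1120 aligned bases. The stretch of coding sequence where the pair differed most is shown because reads over such differences can be told apart. Both lines run 5′ to 3′ along Tdh coding bases 874 to 933, with the differing bases in capitals, and positions are counted from 1 at the first base shown (A7G, G10A, C27T, C57T and G60T, with the base of Tdh first).
Tdh: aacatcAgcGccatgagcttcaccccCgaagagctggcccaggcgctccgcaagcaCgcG
Gm13929: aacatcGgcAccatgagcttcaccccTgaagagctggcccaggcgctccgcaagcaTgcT
The copy held 1100 counts in P33 and 1073 in P42, which was 7.24% and 5.46% of the Tdh count. Of the 50-base words in the Tdh transcript, 15.01% also occurred at another locus, and of the 100-base words 3.31%. With the copy's counts added, the log2 ratio of Tdh was 0.51.

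The glycine cleavage system is a mitochondrial complex in which the decarboxylase Gldc takes up glycine, the lipoate carrier Gcsh shuttles its aminomethyl group and the aminomethyltransferase Amt hands the carbon to tetrahydrofolate. Gldc (ENSMUSG00000024827; chr19:30098447-30175429, minus strand) had 557 CPM at P33 and 423 CPM at P42, from 23473 and 15988 counts, and stood at 80.5 ± 15.5 RPKM (SD, n = 2). Its log2 ratio was −0.40, with an interval from −0.42 to −0.37. Amt (ENSMUSG00000032607; chr9:108296853-108302302, plus strand) had 113 and 72.4 CPM, from 4778 and 2733 counts, and 38.1 ± 11.9 RPKM (SD, n = 2). Amt was 1.57-fold lower in the P42 library, the lowest ratio among the 10 genes, with a log2 ratio of −0.65 (interval −0.72 to −0.58).

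Gcsh (ENSMUSG00000034424; chr8:116981810-116993537, minus strand) differed from its partners and was higher in the P42 library. It had 188 and 225 CPM, from 7916 and 8506 counts, and a log2 ratio of 0.26 (interval 0.22 to 0.31), at a level of 131 ± 16.8 RPKM (SD, n = 2). After removal of the trend of the ratio on GC content and exon length its log2 ratio was −0.02, so the sign of Gcsh depended on that step. Per length, Gcsh exceeded Gldc 1.30-fold in P33 and 2.05-fold in P42, and it exceeded Amt 2.56-fold and 4.80-fold. The level of Gldc was 1.97 and 2.34 times that of Amt, and Gcsh and Gldc both lay above Amt in each library. Over the longest transcript Gcsh was at 0.880 of Gldc in P33 and at 1.39 times Gldc in P42, so the order of these 2 genes in P33 depended on the length used. Summed over the complex's own genes, the level was 858 CPM at P33 and 721 at P42. Gldc, which has the longest exons, made up 557 and 423 CPM of these sums, which are not per length. The shared subunit Dld, a dehydrogenase that also serves the pyruvate and oxoglutarate dehydrogenases, had 37.3 and 56.8 RPKM (log2 ratio 0.61), or 0.313 and 0.398 of the level of Gcsh.

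Serine synthesis starts with the dehydrogenase Phgdh, goes on through the aminotransferase Psat1 and ends with the phosphatase Psph. Psat1 (ENSMUSG00000024640; chr19:15904678-15947337, minus strand) was the most abundant of all 10 genes at 242 ± 65.1 RPKM (SD, n = 2), with 836 and 1227 CPM from 35227 and 46342 counts. Its log2 ratio was 0.55 (interval 0.53 to 0.57), near that of Tdh. Psph (ENSMUSG00000029446; chr5:129765558-129787449, minus strand) had 70.9 and 132 CPM, from 2990 and 4983 counts, and 23.4 ± 9.97 RPKM (SD, n = 2). Its log2 ratio of 0.90 (interval 0.83 to 0.96) was the highest of the 10 and stood for 1.86-fold more in the P42 library. The size of this ratio, without regard to sign, exceeded that of 82.0% of tested genes. Psph shares 452 of its 4329 exon bases with Cct6a, a chaperonin gene on the opposite strand with 36392 and 36561 counts, and whether the counting used the strand is not given in the sources used here.

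Phgdh (ENSMUSG00000053398; chr3:98313170-98339990, minus strand) was nearly level between the libraries, with 109 and 113 CPM from 4596 and 4285 counts and 44.8 ± 1.26 RPKM (SD, n = 2). Its log2 ratio was 0.06, with an interval from −0.00 to 0.12 that includes equality. Psat1 exceeded Phgdh 4.48-fold per length in P33 and 6.32-fold in P42, and it exceeded Psph 12.0-fold and 9.46-fold. All of the serine synthesis genes had ratios above 0, but with total-count scaling the ratio of Phgdh was −0.08. Their summed levels were 1016 and 1473 CPM, of which Psat1 made up 836 and 1227 CPM.

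The count of Phgdh is the least certain of the 10, because many processed pseudogenes carry its sequence. GENCODE holds 22 copies with at least 300 aligned bases at 85% identity or more, of which 10 were among the identifiers of the tables. The processed pseudogene Gm7901 (chr8:75711600-75713196) matched 98.7% of 1595 aligned bases, with 18 substitutions, 2 gap columns and a longest identical run of 312 bases. The coding stretch with the most differences is shown for the same reason, as Phgdh coding bases 1368 to 1427, 5′ to 3′, with differing bases in capitals (G16A, G32A, G53A and G60T, counted from 1 at the first base shown, with the base of Phgdh first).
Phgdh: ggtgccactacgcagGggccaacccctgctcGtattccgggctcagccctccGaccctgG
Gm7901: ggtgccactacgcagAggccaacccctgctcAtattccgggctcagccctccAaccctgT
Gm7901 held 3301 counts in P33 and 2827 in P42, or 78.3 and 74.9 CPM, which was 71.8% and 66.0% of the count of Phgdh itself. None of the other counted copies held more than 10 counts in a library. Of the 50-base words of the Phgdh transcript 63.1% also occurred at another locus, and of the 100-base words 37.3%. Adding the counts of the 10 copies gave 188 and 189 CPM and a log2 ratio of 0.01 (interval −0.04 to 0.05). The near-equality of the libraries was therefore the same with and without the copies, while the level was not. With the copies, Phgdh no longer lay below Mthfd2 per length, and the folds of Psat1 over Phgdh given above would be smaller. The deposited counts do not show which locus the reads of Gm7901 came from.

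**Figure D2:**
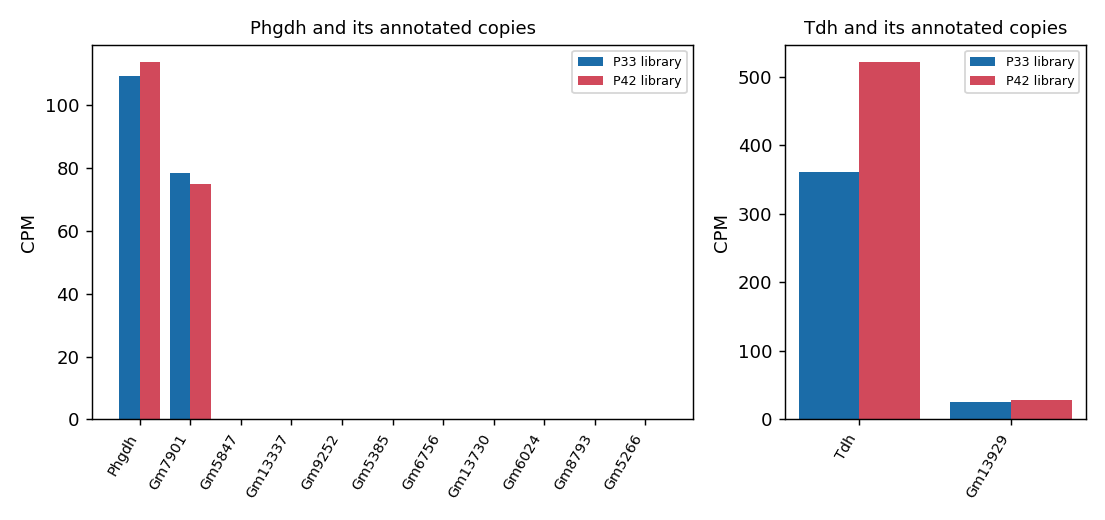
Level in CPM of Phgdh (left) and Tdh (right) and of their annotated copies that are among the table's identifiers, in the P33 library (blue bars) and the P42 library (red bars). Beside Phgdh at 109 and 113 CPM, Gm7901 reaches 78.3 and 74.9 CPM and the other copies are near 0, while Gm13929 reaches 26.1 and 28.4 CPM beside Tdh at 361 and 521 CPM.

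Of the genes for mitochondrial serine and folate enzymes, Shmt2 was higher in the P42 library and Mthfd2 was nearly level. Shmt2 (ENSMUSG00000025403; chr10:127517123-127522444, minus strand), which splits serine into glycine and a folate-bound carbon, had 219 and 261 CPM, from 9215 and 9870 counts, and 77.2 ± 9.72 RPKM (SD, n = 2). Its log2 ratio was 0.26 (interval 0.22 to 0.30). Mthfd2 (ENSMUSG00000005667; chr6:83305691-83325908, minus strand), the dehydrogenase and cyclohydrolase that oxidises that carbon, had 201 and 200 CPM, from 8482 and 7556 counts. Its level of 57.5 ± 0.231 RPKM (SD, n = 2) had the smallest spread of the 10, and its log2 ratio of −0.01 (interval −0.05 to 0.04) exceeded in size that of 1.14% of tested genes. An SD this small for 2 values lies below the counting error of 1.09% and 1.15% of the count and is no measure of precision.

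Each of these enzymes has a relative in another compartment or at another stage. The cytosolic Shmt1 had 48.5 RPKM in P33 and 73.3 RPKM in P42, so that Shmt2 exceeded it 1.45-fold and 1.15-fold, a mean log2 difference of 0.37 ± 0.24 (SD, n = 2). Mthfd2 exceeded Mthfd2l, the mitochondrial paralogue typical of adult tissue, 158-fold and 88.3-fold. The trifunctional cytosolic enzyme Mthfd1 stood above Mthfd2, whose level was 0.698 and 0.716 of it, and above its mitochondrial relative Mthfd1l, at 0.483 and 0.625 of it. Across compartments the mitochondrial enzyme was therefore the higher one for Shmt2 and the lower one for Mthfd2 and Mthfd1l, in both libraries.

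Between the libraries the 10 genes did not move as 1 block. By the rule used for all genes (a mean of 1 CPM or more, at least 2-fold, interval excluding equality), 0 of 10 were higher in the P42 library and 0 were lower, beside 5.07% of 13737 tested genes counted as higher and 9.54% as lower. At 1.5-fold, Psph was counted as higher and Amt as lower, beside 16.1% and 18.9% of all tested genes. Among the 5936 genes at a mean of 30 CPM or more, a minimum that all 10 genes pass, the shares were 3.18% higher and 3.05% lower at 2-fold, and 16.7% and 9.13% at 1.5-fold. A count of 1 in 10 in each direction is near these backgrounds.

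Ratios lay above 0 for 6 of the 10 genes, beside 52.7% of all tested genes, and below 0 for 4, with the interval above equality for 5 (Psph, Psat1, Tdh, Gcsh and Shmt2), below it for 3 (Amt, Gcat and Gldc) and including it for Phgdh and Mthfd2. The median log2 ratio was 0.16, beside 0.04 over all tested genes, whose quartiles were −0.42 and 0.41. The median size of the ratio was 0.43 for the 10 genes and 0.41 for all. Across all tested genes, edgeR's common biological coefficient of variation was 0.349, computed with the 2 libraries treated as replicates. It therefore includes the difference between P42 and P33 itself and is no spread of replicates within a label. The median size for the 10 genes was thus near that of all tested genes, which include genes of lower level. All 10 genes pass a mean of 30 CPM, as do 5936 of the 13737 tested genes. The median size among genes of like level was not computed.

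**Figure D3:**
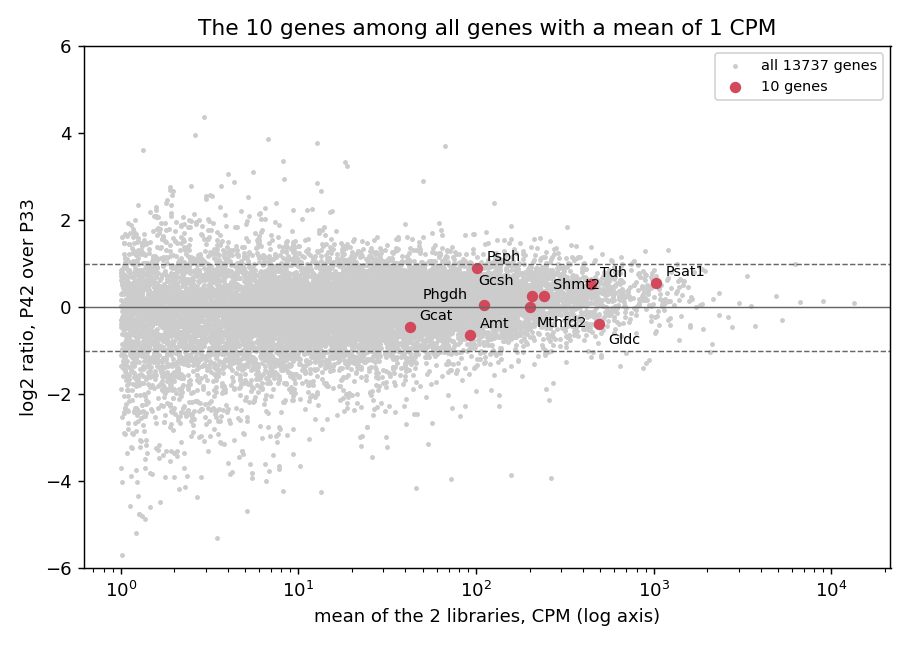
Log2 ratio of P42 over P33 against the mean of the libraries in CPM (log axis) for all 13737 tested genes (grey) and the 10 genes (red, named). The dashed lines mark 2-fold, and all 10 red points lie between them, from −0.65 for Amt to 0.90 for Psph.

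The log2 ratio of P42 over P33 followed the GC content of the transcript across genes, with a median of 0.33 in the tenth of lowest GC and −0.49 in the tenth of highest. Shmt2 and Phgdh are rich in GC at 57.4% and 57.2%, and genes within 1 percentage point of them had medians of −0.38 and −0.39, so both stood above genes of like composition. With the trend on GC content and exon length removed, Shmt2 had a log2 ratio of 0.56 and Phgdh of 0.31. The ratios of Gcat and Gldc moved toward 0, to −0.25 and −0.20, while Amt stood at −0.82. Tdh, Psat1 and Psph stood at 0.55, 0.38 and 0.78. Total-count scaling lowered every log2 ratio by 0.14, the shift that separates it from the scaling used here. Tdh, Psat1, Psph and Shmt2 were above 0, and Amt, Gcat and Gldc below 0, under all of these settings. What the trend on GC content arises from was not tested.

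**Figure D4:**
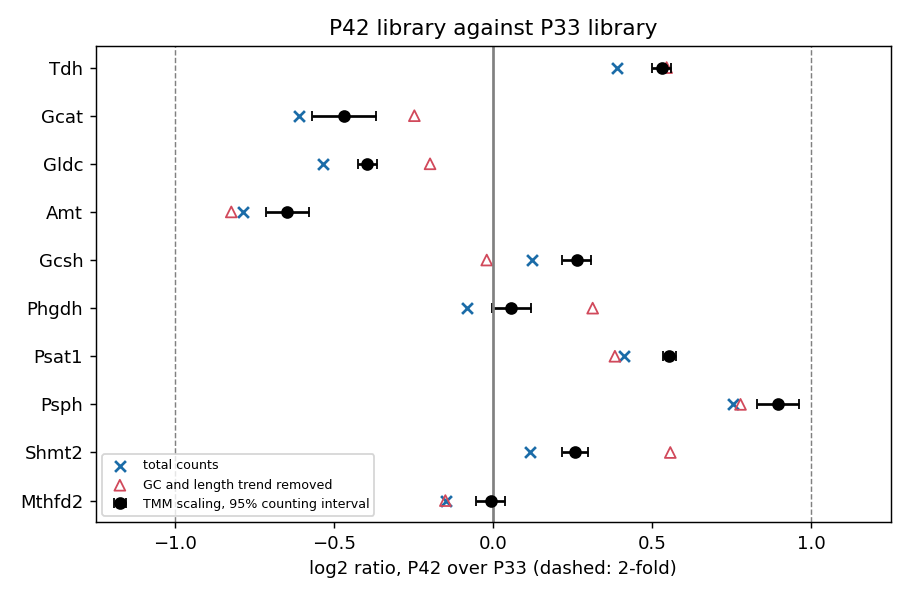
Log2 ratio of P42 over P33 for each gene with TMM scaling and its 95% counting interval (black), with total-count scaling (blue crosses) and with the trend on GC content and exon length removed (red triangles). Psph, Psat1, Tdh and Shmt2 lie right of 0 and Amt, Gcat and Gldc left of 0 in all 3, while Gcsh and Phgdh cross 0 in 1 of them.

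The wider pathway was read from 9 lists of 79 other genes. Of these, 69 were detected in both libraries, and by the 2-fold rule 4 were higher in the P42 library and 4 lower, of 69 tested, with a median log2 ratio of −0.01. Ratios above 0 are counted for each list, beside 52.7% of all tested genes. Among all genes the same rule counts 5.07% as higher and 9.54% as lower, so these counts too are near the background.

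Closest to the 10 genes are Dld and the enzymes that make and attach lipoate, on which glycine cleavage depends. All 4 of these had ratios above 0 (median 0.52), with 0 past 2-fold. Lias, the lipoate synthase, had 15.3 and 16.2 RPKM. Its log2 ratio of 0.08 was −0.14 with the trend on GC content and length removed, and the shift by total counts is larger than it. Of the 8 other genes of threonine and serine breakdown 4 were detected, with all 4 ratios below 0 (median −0.39). The most abundant, Thnsl1, a relative of bacterial threonine synthase, had 6.18 and 6.02 RPKM, and its paralogue Thnsl2 had 1.28 and 1.13 RPKM. The glycerate kinase gene Glyctk was counted as lower at 5.08 and 2.38 CPM (log2 ratio −1.09). Sds, the serine and threonine dehydratase of liver, had 1 and 2 counts, below the level counted as detected.

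The other mitochondrial folate genes were all detected, 5 of 5, with 4 ratios above 0 (median 0.33) and 0 past 2-fold. Mthfd1l, the formyl-folate synthetase, had 177 CPM at P33 and 222 CPM at P42, and the folate carrier Slc25a32 had 6.30 and 6.09 RPKM. Of the 12 cytosolic folate genes 11 were detected, with 5 ratios above 0 (median −0.05) and 0 past 2-fold. Mthfd1 led this list at 82.7 and 80.1 RPKM, followed by Shmt1. De novo purine synthesis, which takes up glycine and formyl-folate, was detected in 7 of 7 genes, with 4 ratios above 0 (median 0.25) and 0 past 2-fold. Paics had 281 and 395 RPKM and Gart, the enzyme that joins glycine to the growing purine, had 125 and 107 RPKM.

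In the methionine cycle and transsulfuration list 2 genes were higher and 1 lower of 9 tested, with 5 ratios above 0 (median 0.35). Mat2a, which makes the methyl donor S-adenosylmethionine, went from 406 CPM at P33 to 895 CPM at P42, with a log2 ratio of 1.14 (interval 1.11 to 1.17). Ahcy, which clears the product of methyl transfer, had a log2 ratio of 1.01 from 353 and 639 counts. Its near-identical copy Gm4737 held 6297 and 7850 counts, however, and with its copies added the ratio of Ahcy was 0.51 (interval 0.46 to 0.55), under 2-fold. Cbs, which joins serine to homocysteine, was counted as lower at 42.6 and 19.2 CPM (log2 ratio −1.15). Cth, the next enzyme of that route, had 109 and 139 RPKM.

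Among 11 other users of glycine or serine 9 were detected, with 6 ratios above 0 (median 0.22). Gclc, for the first step of glutathione synthesis, had 19.7 and 21.2 RPKM, Gclm, its regulatory subunit, had 95.4 and 94.5 CPM, and Gatm, for creatine synthesis, was counted as higher at 1.49 and 3.05 CPM (log2 ratio 1.02). All 8 carriers of glycine and serine were detected, with 2 ratios above 0 (median −0.17) and 0 past 2-fold. The most abundant per length were Slc38a2 at 74.1 and 67.0 RPKM and Slc1a5 at 28.9 and 26.8 RPKM. The carrier Slc25a38, which brings glycine into mitochondria, had 5.12 and 3.64 RPKM.

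The regulators were transcription factors of the amino acid response with some of its known targets, the kinase gene Eif2ak4, Myc and Mycn, and the histone enzyme genes Kdm4c and Ehmt2. All 12 were detected, with 4 ratios above 0 (median −0.39). Atf4, the factor best known for driving serine synthesis genes, had 187 RPKM in P33 and 128 RPKM in P42, a log2 ratio of −0.55, and lies on chromosome 15, as Gcat does. Asns, a widely used target gene of Atf4, had 297 and 439 RPKM and a log2 ratio of 0.56. Other genes of this response went in both directions, with log2 ratios of −0.74 for Sesn2, −0.33 for Ddit3 and 0.13 for Trib3. The shift of 0.14 by total counts is larger than the ratio of Trib3, which was 0.43 with the trend removed. Chac1, an enzyme that degrades glutathione, was counted as higher at 26.5 and 54.3 CPM (log2 ratio 1.03). Atf5 was counted as lower at 31.9 and 14.4 CPM (log2 ratio −1.14), as was the histone methyltransferase gene Ehmt2 at 126 and 47.7 CPM (log2 ratio −1.40). With the trend on GC content and length removed, Chac1 was the 1 gene of the 9 lists counted as higher and Cbs the 1 counted as lower, and with total-count scaling 0 were counted as higher and 4 as lower.

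**Figure D5:**
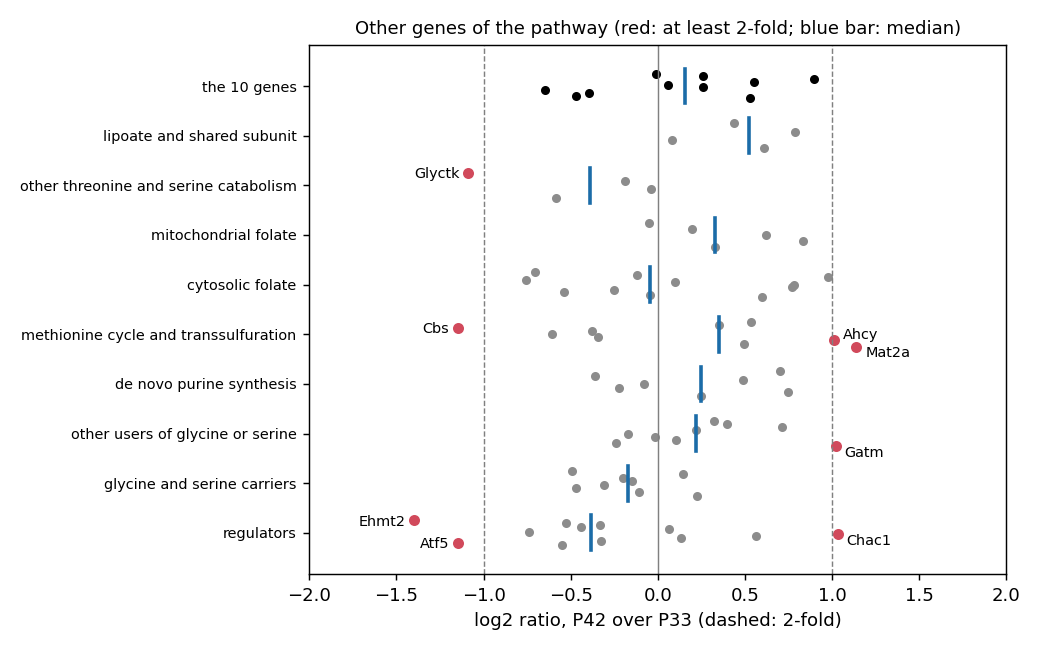
Log2 ratio of P42 over P33 for the 10 genes (black) and the tested genes of 9 lists of the surrounding pathway (grey; red and named where at least 2-fold apart), with the median of each row as a blue bar and 2-fold as dashed lines. Medians run from −0.39 to 0.52, and 8 genes lie past 2-fold, 4 on each side.

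Promoter sequence was compared in RefSeq windows on GRCm38.p6 from 250 bases before to 50 after each start, which were found for 9 of the 10 genes (10 windows, 2 of them for Psat1) and not for Tdh. On both strands, TGATGNAA, the core of the amino acid response element bound by Atf4 with a C/EBP factor, was present in 3.97% of 32851 windows and in 0 of the 10. The E-box CACGTG, bound by Myc and Max, was present in 7.15% of windows and in 1 of the 10, that of Gcat. The E-box reads the same on both strands, and in the Gcat window (chr15:79030624-79030923, plus strand) it starts 2 bases after the transcription start. It is shown with 10 bases on either side, the motif in capitals.
Gcat: ctgcccacgtCACGTGacggggagca
The GC box GGGCGG, bound by Sp1, was present in 35.7% of all windows and in 6 of the 10, those of Amt, Gcat, Gcsh, Gldc, Psph and 1 of Psat1. In Psat1, the most abundant gene, 2 GC boxes lie near the start of 1 window (chr19:15924573-15924872, minus strand), and the first of them is in capitals in the line below, read along the gene.
Psat1: gtgaatgaatGGGCGGtcggggcggc
The 10 windows held a median of 17.5 CpG dinucleotides, from 7 for Amt to 30 for that window of Psat1, beside a median of 7 over all windows. A match of letters describes the sequence and is not a binding site, and a window without a match says nothing about the factor.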

How the data were processed

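Polyadenylated RNA was sequenced from 2 libraries of wild-type E14 cells. The authors deposited whole-number counts per Ensembl gene, not normalized, made with STAR 2.4.2a and featureCounts 1.4.5-p1 on mm10, per the submitters' processing notes. Which annotation release was used, whether strand counted and how multi-mapping reads were handled is not given in the sources used here, so near-identical copies may share counts.

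GENCODE M21 on GRCm38 held 42548 of the 43629 identifiers; GRCm38 is the assembly of mm10. Identifiers without a match held 0.155% and 0.174% of the counts. From the deposited counts, CPM and RPKM were computed with TMM factors (1.05 and 0.952) from edgeR 4.0.16 under R 4.3.3. The log2 ratio used a prior count of 0.5. Alternatives tried were total counts, size factors from DESeq2 1.42.0, other minimums and folds, TMM factors without chromosomes 1, 15 and Y, a prior count of 2, removal of the trend on GC content and exon length (lowess, span 0.3, statsmodels 0.14.6), and the longest transcript as length. A minimum of 30 CPM and the adding of copies were chosen after seeing the data. Copies were found with blastn 2.17.0. Other steps ran in Python 3.11.15 (scipy 1.17.1, numpy 2.4.6, pandas 2.3.3). The comparison was tested on simulated counts with known fold changes or a known trend on GC content. These held counting error alone, so they say nothing about other variation between the real libraries.

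The members, lists and tests were chosen with earlier results of these data known. All 10 genes were named, and of each other list the 2 of highest mean RPKM and each gene counted as higher or lower. Further genes named here (Slc25a38, Sesn2, Ddit3, Trib3 and Sds) were detected members or were chosen after their values were seen. Likeness to other genes was not computed, since over 2 libraries every pair of genes correlates fully. Promoter sequences are from RefSeq (GRCm38.p6) and transcript sequences from GENCODE M21. Protein sequences were not used here.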

Additional observations from a re-analysis of the deposited data

How the results depend on the processing

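All 10 genes were detected under each of the 6 alternatives tried, and the count of the 10 genes past 2-fold was 0 in each direction under DESeq2 size factors, total counts, every minimum, the removed trend, the TMM factors without chromosomes 1, 15 and Y, and 3-fold. At 1.5-fold it was 1 higher and 1 lower. Some of these outcomes were fixed in advance. Detection in both libraries implies detection with 1 left out, and 0 at 2-fold implies 0 at 3-fold. The minimums could not change a call, since all 10 genes pass a mean of 30 CPM. The median level of 67.4 RPKM was 100.5 RPKM over the longest transcript, and between 63.4 and 64.0 RPKM with 1 library left out. The median log2 ratio of 0.16 was 0.016 with total counts, a scaling that lowers every ratio alike. The other genes counted as higher were 4 of 69 tested, and 0 with total counts, 1 with the trend removed, 15 at 1.5-fold, 0 at 3-fold and 2 at a minimum of 30 CPM. Those counted as lower were 4, and 1 with the trend removed, 9 at 1.5-fold, 0 at 3-fold and 2 at a minimum of 30 CPM. Over all tested genes, 16.1% were higher and 18.9% lower at 1.5-fold, and 3.18% and 3.05% at a minimum of 30 CPM. Such shares were not computed for total counts, the removed trend or 3-fold, so those counts say nothing particular to the lists. Of 60 recomputed ratios of the 10 genes, 57 kept their sign, and the others were Gcsh at −0.02 with the trend removed, Phgdh at −0.08 with total counts and Mthfd2 at 0.003 with the TMM factors without chromosomes 1, 15 and Y. The cause of these changes of sign was not tested. Some of the 60 could hardly change sign. The adding of copies leaves genes without a counted copy as they were, and a prior count of 2 barely moves ratios from such high counts. The log2 difference of Shmt2 and Shmt1 ran from 0.20 to 0.54 over single libraries. Leaving out a library gives no ratio of P42 over P33. Depth limits little for the 10 genes, whose counting error is at most 2.73% of a count. The limit is 1 library for each label.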
